A study of Mus musculus with 16 samples.

Results

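The potassium channel gene family is described here by the DNA double-strand break sites that fall in its genes in mouse cardiac myocytes. Members were all protein-coding mouse genes whose symbol starts with Kcn, 94 of 21887 protein-coding genes (mm10, RefSeq). Membership goes by symbol and used no measured value, but the family was chosen with earlier results of these data known. Break sites were mapped by END-seq, which sequences the ends of double-strand breaks, in myocytes isolated by Langendorff perfusion. The 6 libraries came from 3 mice labelled wild type (WT) and 3 labelled Myh6-Cre:LmnaF/F (cKO), whose floxed Lmna is deleted by a Cre that the cardiac myosin promoter Myh6 drives in myocytes. Age and sex are not given, and no group carries Cre with intact Lmna, so Cre and the deletion cannot be told apart. Peak lists hold no transcript levels, so the myocyte label could not be compared with marker genes.

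On the autosomes, X and Y the lists held from 1345 peaks (WT 1) to 29743 peaks (cKO 1), and the read depth behind them is unknown. A longer list hits more genes, so numbers are given per library and beside list length. The list labelled cKO 1 carries peak names starting with WT-4, and so does the list labelled WT 3, so the main counts that rest on either are also given without it. A gene counted as hit when at least 1 bp of a peak fell within the gene or the 1000 bp to either side. Breaks below a list's detection limit leave no peak.

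Potassium channels let potassium leave or enter cells and so set the resting potential and end the action potential. In heart muscle, voltage-gated channels carry the repolarising currents, inward rectifiers hold the resting potential, and auxiliary subunits tune how the pore-forming subunits open. Many other members are best known from neurons, secretory tissue or epithelia. The genes differ greatly in length, from 1.45 kb (Kcne1l) to 1136 kb (Kcnip4), with a median of 32.7 kb against 17.2 kb for all protein-coding genes. Because a long gene offers more sequence to a peak, each member was set beside the 100 non-Kcn genes nearest to it in length, and their mean is called the length-matched expectation below.

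Over all 6 lists, 55 of the 94 genes had a peak and 39 had none. The 3 WT libraries, in numerical order as in all triplets below, had 4, 37 and 21 hit genes, and the 3 cKO libraries had 51, 30 and 45. The genotypes overlapped, since WT 2 had more hit genes than cKO 2. The length-matched expectations were 4.08, 31.6 and 21.4 in WT and 43.0, 28.7 and 37.3 in cKO, so the observed numbers lay between 0.980 and 1.21 times what genes of like length showed. Among all protein-coding genes, the share hit was 1.63%, 20.2% and 12.1% for WT and 31.6%, 17.0% and 24.9% for cKO.

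On average 20.7 ± 16.5 Kcn genes were hit per WT library and 42.0 ± 10.8 per cKO library (mean ± SD, n = 3 per genotype), which is 21.3 more in cKO. Without cKO 1 the difference was 16.8, without WT 3 21.5, and without both 17.0. With every list shortened to its strongest 1345 peaks the difference was 0. Lists that short reach few Kcn genes, with 5.30 expected from length in at least 2 cKO libraries and 5.39 in WT. This setting therefore cannot show a difference at weaker sites. Relative to list length the genotypes were close. Of every 10000 listed peaks, 29.7, 45.3 and 37.3 lay at Kcn genes in WT, and 42.0, 38.2 and 36.3 in cKO. The cKO values lay inside the range of the WT values, whose low end, in WT 1, rests on 4 peaks. Kcn spans make up 0.408% of the sequence lying between the first and last peaks of the chromosomes, so peaks spread evenly would put 40.8 of every 10000 there.

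In at least 2 of 3 cKO libraries 43 Kcn genes were hit, against 35.6 from length and a background of 23.1% of all protein-coding genes. In at least 2 of 3 WT libraries 20 were hit, against 18.7 from length and a background of 9.56%. With 1 library of a genotype left out, at least 2 means both of those remaining. Without WT 2 or without WT 3 the WT number was 4, the most that WT 1 with its 4 hit genes allows. Without cKO 1 the cKO number was 29, where cKO 2 had 30 hit genes. With both lists whose names start with WT-4 left out the WT number was 4.

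Summed over the 6 lists, the family held 363 peaks, 0.923 times the 393 of the length-matched expectation. The 10 genes with the most peaks carried 170 of them, or 46.8%. Across the 94 genes, peak number and gene length had a Spearman correlation of 0.635, and across all 21887 genes it was 0.594. The genes share the same libraries, so these are descriptions. Of the 94 genes, 31 (33.0%) lay above their own length-matched mean, against 25.9% of all protein-coding genes. Of the 23 Kcn genes of at least 100 kb, 7 did (30.4%), against 44.3% of all protein-coding genes of that length.

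**Figure D1:**
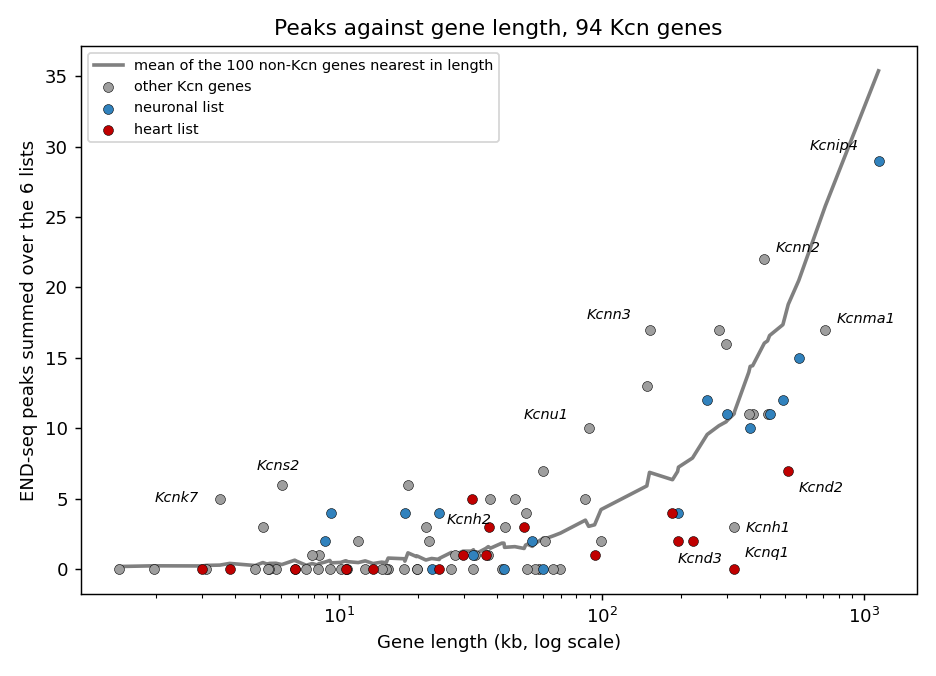
Peaks summed over the 6 END-seq lists (linear axis) against gene length (kb, log scale) for the 94 Kcn genes, 1 point per gene, with the mean of the 100 non-Kcn genes nearest in length as a line. Kcnq1 sits at 0 peaks at 320 kb, where the line is at 11.0, while Kcnn3 and Kcns2 lie above the line.

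Among 17 Kcn genes listed as used by heart muscle, the long ones carried few peaks for their length and the shorter ones did not. The list was taken from textbook knowledge, since expression was not measured here, and with earlier results of these data known. It may not hold every channel of heart muscle, and no other choice of genes was tried. The 29 peaks of these 17 genes compared with 64.4 for genes of like length, a ratio of 0.451. For the other 77 Kcn genes the numbers were 334 and 329, a ratio of 1.02. Leaving out Kcnq1, the heart genes had 29 peaks against 53.3. The 5 heart genes of at least 100 kb (Kcnd2, Kcnq1, Kcnd3, Kcnk2 and Kcnj3) held 15 peaks against 51.0, and the other 12 held 14 against 13.3, a split made after the values were seen. Outside the heart list, the 18 genes of at least 100 kb held 242 against 263 and the 59 shorter genes 92 against 66.1. Of the 17, 3 genes (Kcnh2, Kcnj12 and Kcnk3) lay above their own length-matched mean, which is 17.6%, and the median ratio was 0.288, against 0.625 for the whole family. For the neuronal list described below the median ratio was 0.732, and for the 60 Kcn genes in neither list it was 0.370. Over all protein-coding genes, most of which had no peak, 25.9% lay above and the median ratio was 0. The ratio of 0.451 became 0.458 with 30 neighbours, 0.335 with 20 bins of gene length and 0.371 with 100 bins, and it ranged from 0.399 to 0.476 when each library was left out. The difference between the lists was not tested.

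Counted as genes hit, the heart list was near its expectation in cKO 1 and cKO 3 and below it in cKO 2 and in each WT library. Of the 17, the WT libraries had 0, 5 and 1 hit, against 0.60, 5.97 and 3.84 from length. The cKO libraries had 8, 4 and 7 hit, against 8.35, 5.29 and 6.89. Of the 17, 6 were hit in at least 2 cKO libraries (6.67 from length) and 1 in at least 2 WT libraries (3.20 from length). Without cKO 1, when both remaining cKO libraries had to be hit, the cKO number was 3. The heart genes held 16 regions in all, a region being overlapping peaks of the 6 lists joined, and 11 of these (68.8%) came from a single library, against 56.1% of Kcn regions and 57.5% of all regions.

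**Figure D2:**
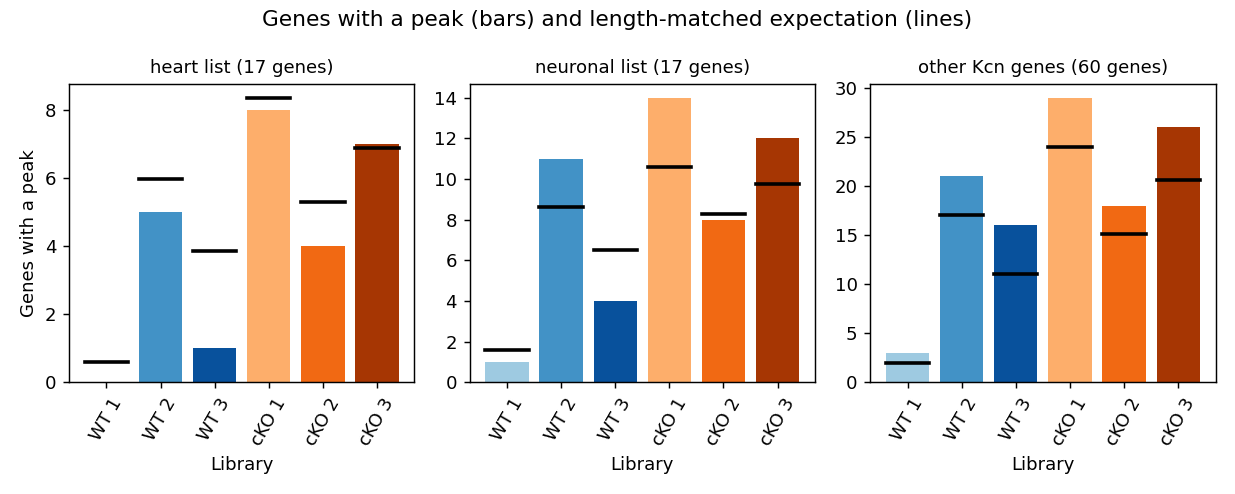
Number of genes with a peak in each library (bars, linear axis from 0) for the heart list, the neuronal list and the other Kcn genes, with the length-matched expectation as black lines. The heart bars reach 8 of 17 genes in cKO 1 and 0 in WT 1.

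Kcnq1, the pore-forming subunit of the slow delayed rectifier, had no peak in any of the 6 lists. It lies on chromosome 7 from 143106877 to 143427050 (mm10) and spans 320 kb. Each of the 100 non-Kcn genes nearest in length, from 300 to 342 kb, had a peak in at least 1 list, and their mean was 11.0 peaks. Of all 557 protein-coding genes of at least 300 kb, Kcnq1 was the only gene with no peak in any list, and of 990 genes of at least 200 kb there were 5. Among all protein-coding genes of any length, 61.7% had no peak. The long noncoding RNA gene Kcnq1ot1 (83.4 kb), which takes part in imprinting of this cluster, lies inside the Kcnq1 span.

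The sequence around Kcnq1 was not empty. The stretch without a peak measured 337 kb, and 188 of 46195 gaps between neighbouring regions (0.407%) were at least as long, where the median gap was 38.8 kb. It ended 3.09 kb beyond the high-coordinate end of Kcnq1 at a region with a peak in 5 libraries. The authors' folds over background there were 43.2 and 33.0 in WT 2 and WT 3, and 44.2, 34.0 and 42.8 for cKO. These sites close by were thus strong ones in each of those lists. On the other side the nearest region lay 13.4 kb away, in 1 library, with a fold of 5.53. The nearest one there with a peak in at least 2 libraries lay 140 kb from Kcnq1. Within 500 kb on either side there were 2.30 regions per 100 kb, against 1.74 over the genome. Mappability and coverage inside the gene were not measured.

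**Figure D3:**
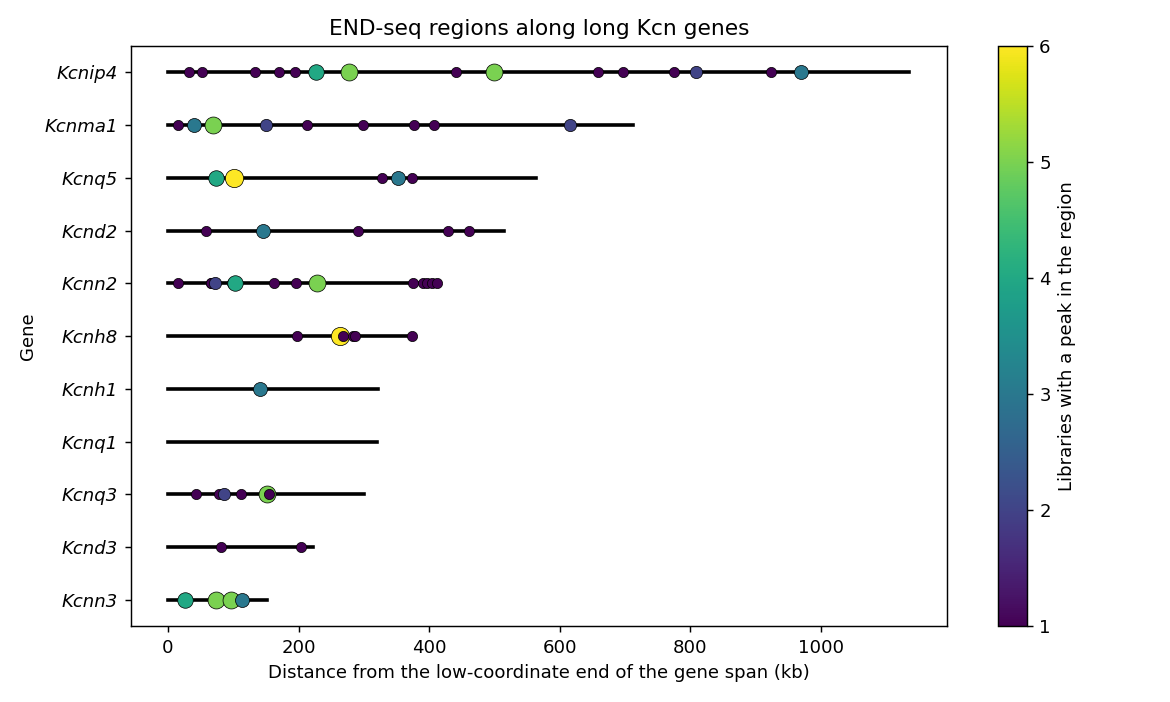
END-seq regions along 11 long Kcn genes, as distance in kb from the low-coordinate end of each gene span, with point size and colour giving the number of libraries with a peak. Kcnq1 carries no point along 320 kb, whereas Kcnh8 and Kcnq5 each carry a region seen in all 6 libraries.

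Kcnh2 encodes the pore of the rapid delayed rectifier, and was the heart gene hit in the most libraries. It lies on chromosome 5 from 24319589 to 24351684 (32.1 kb). It had 1 peak in WT 2, in WT 3 and in each cKO library, and none in WT 1. All of these peaks fell in 1 region, from 24329797 to 24330019, which also overlaps the long noncoding RNA gene Gm15589. The authors' folds were 13.5 and 8.76 in WT 2 and WT 3, and 37.4, 19.9 and 23.9 for cKO. Folds are relative to each library's own background and were not compared between genotypes. Of 100 genes of like length, 5 were hit in at least 5 libraries, against 8.20% of all protein-coding genes.

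The Kcnh2 region reaches into the RefSeq window of an internal transcript start, which is why its sequence is shown. The start lies inside the gene on the minus strand, and the region covers positions 206 to 428 bp upstream of it. The window from 250 bases before to 50 bases after the start is printed 5′ to 3′ (chr5:24329542-24329841, minus strand, GRCm38.p6, RefSeq), with capitals for the 45 bases under the peak region. The whole window holds 74.3% G and C, against a median of 56.3% over 21263 windows of protein-coding genes. For the 501 of these windows that overlap a peak region the median was 62.0%.
Kcnh2: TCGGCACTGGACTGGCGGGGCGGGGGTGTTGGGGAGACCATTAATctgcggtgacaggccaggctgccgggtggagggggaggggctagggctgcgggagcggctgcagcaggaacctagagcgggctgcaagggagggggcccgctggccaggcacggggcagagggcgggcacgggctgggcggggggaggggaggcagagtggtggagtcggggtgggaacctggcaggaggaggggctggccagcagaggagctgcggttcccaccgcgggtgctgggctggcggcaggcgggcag

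A start window with a peak was found in 1 other Kcn gene, Kcnk15, which encodes a tandem-pore subunit and had a further peak inside the gene in cKO 3. Windows were given for 69 of the 94 genes, 94 windows in all, and 2 of them (2.13%) overlapped a peak region, against 2.36% of the windows of all protein-coding genes. The Kcnk15 window is shown because its peak lies directly upstream of the start, from 248 to 63 bp before it, in WT 2 (fold 6.47) and cKO 1 (fold 8.30). It is printed 5′ to 3′ (chr2:163853500-163853799, plus strand, GRCm38.p6, RefSeq), with capitals for the 186 bases under the peak region, and holds 66.3% G and C.
Kcnk15: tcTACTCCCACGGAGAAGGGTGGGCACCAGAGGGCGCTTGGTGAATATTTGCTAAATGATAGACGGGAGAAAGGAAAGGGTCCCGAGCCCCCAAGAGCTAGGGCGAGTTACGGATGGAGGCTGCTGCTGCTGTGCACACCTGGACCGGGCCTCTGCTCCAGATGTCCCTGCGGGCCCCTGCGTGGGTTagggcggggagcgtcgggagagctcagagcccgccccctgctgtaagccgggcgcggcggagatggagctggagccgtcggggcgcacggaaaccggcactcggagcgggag

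The genes of the transient outward current, Kcnd2 and Kcnd3, had few peaks for their length. Kcnd2 (chromosome 6, 21215346 to 21729805, 514 kb) had 0, 1 and 0 peaks for WT and 4, 1 and 1 for cKO. The groups overlapped at 1 peak (difference in means 1.67, two-sided p = 0.3 by exact permutation of 20 assignments, adjusted p = 1.0 over all genes). Its 7 peaks compared with 18.8 in genes of like length, and 3 of its 100 neighbours in length had as few. Kcnd3 (222 kb) had 2 peaks, both in cKO 1, against 7.90 from length. Kcnip2, the auxiliary subunit of these channels in heart, had none in 24.1 kb, and 69 of its 100 neighbours had none either.

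Among the inward rectifiers used by heart, Kcnj2, the main carrier of the resting current, had no peak in any list (chromosome 11, 111066164 to 111076825, 10.7 kb). At that length 77 of 100 genes had none. Kcnj12, its close relative, had 1 peak each in WT 2, cKO 1 and cKO 3, in a region 0.93 kb inside the gene start. Kcnj3, a subunit of the acetylcholine-activated channel of the atrium, had 1 peak in WT 2 and in each cKO library, with folds of 14.7 in WT 2 and 35.9, 19.6 and 21.1 in cKO. Kcnj5, its partner subunit, had 1 peak in cKO 3. Kcnj8 and Kcnj11, pore subunits of the ATP-sensitive channels, had none in 6.78 and 3.83 kb.

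The remaining heart genes were hit once or not at all per library. The tandem-pore gene Kcnk3 had 1 peak in WT 2, cKO 1 and cKO 3, with folds of 6.47, 26.7 and 14.4. Kcnk2, a stretch-sensitive relative, had 1 peak in cKO 1 and 1 in cKO 2 at different places, against 6.94 from length. Kcna4, a voltage-gated subunit, had 1 peak in cKO 3. Kcna5, of the ultrarapid delayed rectifier, and Kcne1, the partner of Kcnq1, had none.

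Some sites recurred in nearly all libraries. Of 173 regions at Kcn genes, 21 (12.1%) had a peak in 5 or 6 libraries, against 8.35% of all 46216 regions, and these lay in 17 genes. Of the 16 heart regions, 1 (6.25%), that of Kcnh2, was among them. The median fold of peaks at Kcn genes was 15.4, 12.7 and 13.2 for WT, where all listed peaks had 8.40, 13.5 and 8.27. For cKO it was 16.2, 19.4 and 16.4, against 15.6, 16.3 and 12.7.

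Peaks were found in all 6 libraries in 3 Kcn genes, against 3.43 from length and a background of 1.25%. Without WT 1, whose list is the shortest, the number hit in all remaining libraries was 18. Kcns2 encodes a voltage-gated subunit that is silent alone and modifies other subunits. It spans only 6.05 kb (chromosome 15, 34837355 to 34843407), and its single region lay at its low-coordinate end, from 34837334 to 34837576, where the noncoding gene Gm32970 overlaps. The folds there were 5.37, 46.6 and 39.0 for WT, and 49.8, 38.8 and 28.7 for cKO. None of the 100 genes nearest in length was hit in all 6 libraries, and 1 was hit in at least 5. The site was strong in every list but that of WT 1.

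Kcnh8, a channel of the ether-a-go-go group, had 1, 2 and 3 peaks in WT and 2, 2 and 1 in cKO. Its shared region, from 52865849 to 52866140 on chromosome 17, had folds of 18.1, 55.3 and 45.3 in WT and 51.1, 43.4 and 54.5 in cKO. The fold of 55.3 in WT 2 was the highest at any Kcn gene. Kcnq5, of the M-current family, had 1, 4 and 1 peaks in WT and 4, 2 and 3 in cKO. Its shared region, from 21499265 to 21499509 on chromosome 1, had folds of 12.7, 30.3 and 13.2 in WT and 45.1, 37.5 and 34.9 in cKO. At these lengths, 15 and 18 of 100 neighbours were hit in all 6 libraries.

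**Figure D4:**
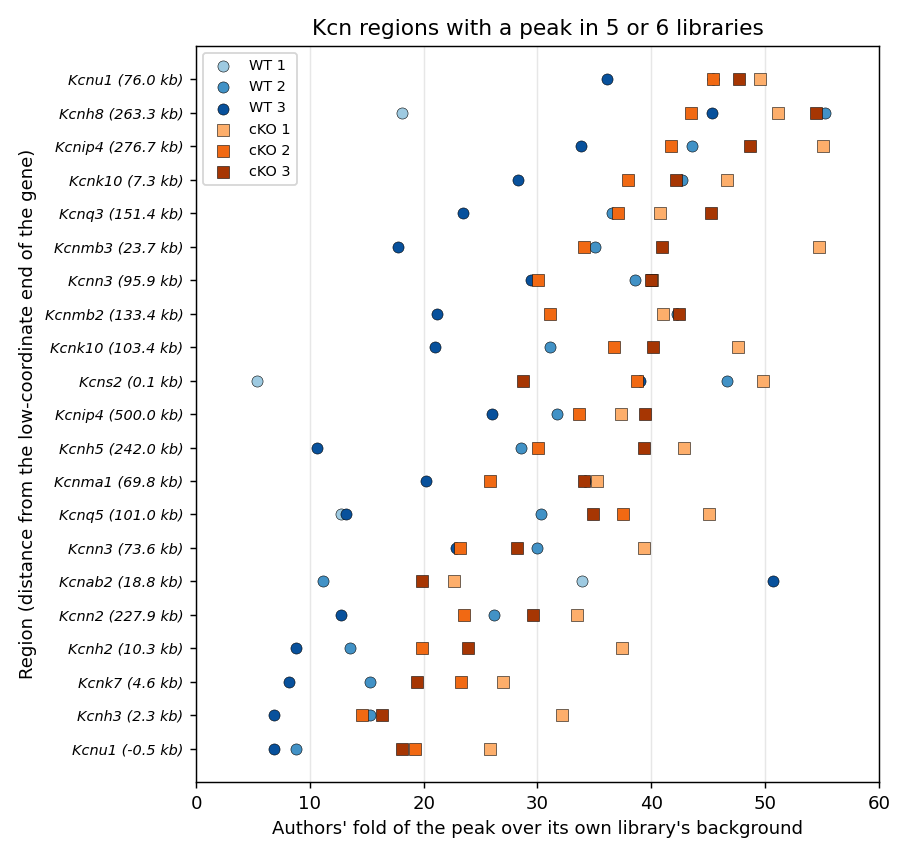
Authors' fold of each peak over its own library's background (linear axis) for the 21 Kcn regions found in 5 or 6 libraries, labelled by gene and distance from its low-coordinate end; circles are WT and squares cKO libraries. The Kcnh8 region has a fold of 55.3 in WT 2 and 18.1 in WT 1, and the Kcnab2 region has its highest fold, 50.7, in WT 3.

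Of 12 genes of calcium- or sodium-activated channels, 8 were hit in at least 2 cKO libraries (6.49 from length), 6 in at least 2 WT libraries (3.88) and 4, Kcnmb1, Kcnmb4, Kcnn1 and Kcnn4, in none (3.70). Kcnn3, a small-conductance channel, had 0, 4 and 3 peaks in WT and 4, 4 and 2 in cKO over 152 kb. Its 17 peaks compared with 6.88 from length, and 1 of its 100 neighbours had as many. Kcnn2, of the same group, had 0, 4 and 1 peaks in WT and 10, 2 and 5 in cKO, 22 in all against 16.1. Kcnmb2, an auxiliary subunit of the large-conductance channel, had 0, 3 and 1 in WT and 6, 3 and 3 in cKO, 16 against 10.5. Kcnma1, the pore of that channel, had 17 peaks over 713 kb against 25.8, and Kcnt2, a sodium-activated channel, had 10 against 14.4. Kcnu1, a pH-sensitive channel of sperm, had 2 peaks in every library but WT 1, of which 1 region lay just outside the gene span. Its 10 peaks compared with 3.05.

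Tandem-pore and other genes hit above their length included Kcnk10, with 0, 2 and 2 peaks in WT and 3, 2 and 4 in cKO, 13 against 5.92. Kcnj16, an inward rectifier of kidney and glia, had 7 against 2.20. Kcnh5 had 0, 3 and 1 peaks in WT and 4, 3 and 6 in cKO, 17 against 10.2. For Kcnj6 the WT libraries held 0, 3 and 0 peaks and the cKO libraries 6, 0 and 3, which is 12 against 9.57. Kcnh7, unlike these genes, lay below its length-matched mean, at 12 peaks against 17.4. Its WT libraries held 0, 2 and 1 of them, its cKO libraries 5, 2 and 2. In Kcnk7 (3.51 kb) the peak of 5 libraries lay beyond the gene span, inside the neighbouring gene Ehbp1l1. Genes of at least 50 kb without any peak, beside Kcnq1, included Kcng2, Kcnip3 and Kcng3, where 24 to 38 of 100 neighbours had none either.

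A list of 17 channels best known from neurons had 121 peaks against 142 from length, a ratio of 0.853. Of these, 12 were hit in at least 2 cKO libraries (9.62 from length) and 4 in at least 2 WT libraries (6.05 from length). Kcnip4, an auxiliary subunit of the transient outward channels and the longest member, had 0, 5 and 3 peaks in WT and 10, 6 and 5 in cKO. Its 29 peaks compared with 35.4 in its neighbours, which ranged from 758 to 1643 kb.

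By subfamily, 5 of 8 Kcnh genes were hit in at least 2 WT libraries against 2.83 from length, and 6 of 8 in at least 2 cKO libraries against 4.64. Of 5 Kcnq genes, 3 met this in cKO (3.63 from length) and 2 in WT (2.01). Of 14 tandem-pore genes, 7 met this in cKO (4.21 from length) and 3 in WT (1.84). Of 15 inward rectifiers, 5 did in cKO (4.20) and 0 in WT (1.62). Of 27 other voltage-gated genes, 10 did in cKO (7.84) and 1, Kcns2, in WT (3.60). Of 12 auxiliary subunits outside the calcium-activated group, 4 did in cKO (4.50) and 3 in WT (2.92). These numbers are small and were not tested.

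Few Kcn genes separated the genotypes. In 2 genes a peak was found in all 3 cKO libraries and in no WT library, against 1.73 from length and a background of 1.43%. Kcnh1, an ether-a-go-go channel (chromosome 1, 192189144 to 192510159), had 1 peak per cKO library in the same region, with folds of 17.0, 14.6 and 18.3. This gene is outside the heart list, yet its 3 peaks over 321 kb were also few against 11.2 from length. Of its 100 neighbours in length, 7 had as few. Kcnc2, a fast delayed rectifier of interneurons (chromosome 10, 112269898 to 112466304), had 2, 1 and 1 peaks. Its shared region, 5.57 kb inside the gene start, had folds of 11.1, 9.68 and 10.5. No Kcn gene showed the reverse pattern, with a background of 0.00914%. With lists of 1345 peaks the number hit in cKO alone was 0, without WT 2 it was 10, and without cKO 2 it was 5. Without cKO 1 it was 3, and without WT 3 it was 2.

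In 4 genes every cKO library had more peaks than every WT library, against 5.04 from length and a background of 2.44%. Besides Kcnh1 and Kcnc2 these were Kcnma1, with 0, 1 and 2 peaks in WT and 7, 3 and 4 in cKO, and Kcnip1, an auxiliary subunit, whose peaks numbered 0, 1 and 0 for WT and 5, 2 and 3 for cKO. Kcnip1 was named after its values were seen. Each had an exact permutation p of 0.1, the smallest that 3 mice against 3 allow, and an adjusted p of 1.0 over all 21887 genes. All 4 genes still separated the genotypes without WT 3, without cKO 1 and without both. With lists of 1345 peaks the difference was 0 for each of the 4. Without WT 1 and with lists of 8320 peaks, the mean difference, cKO minus WT, was 0.667 for Kcnh1, 0 for Kcnc2, 0.833 for Kcnip1 and -0.50 for Kcnma1. Per 10000 listed peaks the exact permutation p was 0.4 for Kcnma1 and 0.1 for the other three. For Kcnh2 the exact permutation p was 1.0, and per 10000 listed peaks its mean difference, cKO minus WT, was -0.11. By this test 0 of all genes passed an adjusted p of 0.05, and 0 had an unadjusted p under it, which the design cannot reach.

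Regions were spread along the genes. Of 173 regions, 167 lay inside a gene span and 6 in the added flanks. For 129 regions in 37 genes of known strand, the successive 25% stretches from gene start to gene end held 29, 32, 31 and 37 regions, and 9 regions lay within 5 kb of the start. Their median width was 175 bp, against 172 bp for all regions.

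**Figure D5:**
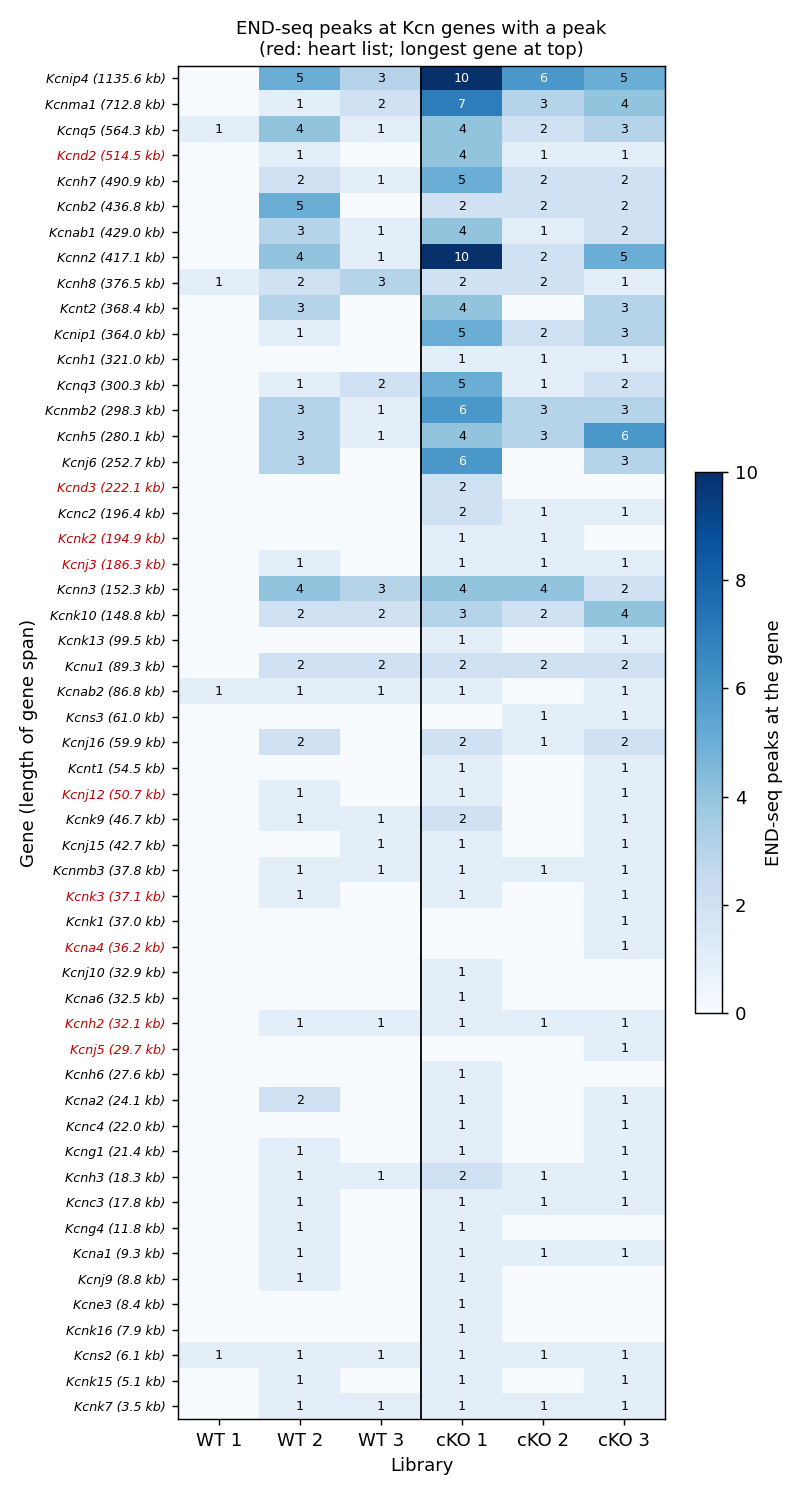
Number of END-seq peaks at the Kcn genes with a peak that are reported by name (rows, longest gene at the top, heart genes in red) in each library (columns); blank cells hold no peak. Counts reach 10 in Kcnip4 and Kcnn2 in cKO 1, and Kcns2, near the bottom, has 1 peak in all 6 libraries.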

How the data were processed

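The authors deposited 1 END-seq peak list per library in narrowPeak layout. Tools named in the submitters' processing notes are DiffBind, FastQC and SEACR, with mm10 as build and no roles. Aligner and calling settings: not given in the sources used here. Each deposited peak has a fold (linear ratio over background), −log10 p and −log10 q values and a score. Peaks on the autosomes, X and Y were used, and all of these had q of at most 0.01. Peaks on other sequences were left out. Lists grow with depth and enrichment, and depth is unknown. Lamin A intervals are on another build and were not used.

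Genes came from RefSeq (GRCm38.p6). Groups were taken from the titles, and the 3 mice per genotype from the design text. Peak numbers per gene were compared by exact permutation over 20 assignments, with Benjamini-Hochberg adjustment over all genes. Counts over members got no test. The expectation is the mean of 100 non-Kcn genes nearest in log length. Overlap counts, expectations and the exact test were tested on simulated data.

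Members and lists were chosen with earlier results of these data known. Named were Kcnq1, Kcnh2, Kcnd2 and Kcnj2, genes hit in all 6 libraries or in 1 genotype alone, the 10 with most peaks, the 5 highest and 5 lowest against length from 50 kb, heart genes with a peak, and genes of at least 100 kb without one. Others were named after their values were seen. Some members are counted in every total but not reported here by name. Alternatives were a q of at most 0.00001, equal list lengths, gene spans alone, 50% of a peak inside, autosomes, other length matching, leaving out each library, peaks per 10000, and a replicate block. Calculations used scipy 1.17.1, pandas 2.3.3 and numpy 2.4.6 under Python 3.11.15, and plots matplotlib 3.10.9.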

Additional observations from a re-analysis of the deposited data

How the results depend on the processing

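With every list shortened to 1345 peaks, Kcn genes hit in at least 2 libraries numbered 6 in cKO and 7 in WT, heart genes 0, genes in cKO alone 0 and genes in all 6 libraries 1. The difference in hit genes per library was then 0 and the heart ratio of peaks to expectation 0. When WT 1 was dropped and the other lists held 8320 peaks each, which was chosen after seeing the data, the cKO number was 25, heart genes 2, genes in cKO alone 0, genes in all libraries 16 and the difference in hit genes 2.0, and Kcnma1 had -0.50 peaks in cKO relative to WT. With both lists whose peak names begin with WT-4 left out, also chosen after seeing the data, the WT number was 4 and heart genes 3. Leaving out each library in turn, genes in at least 2 WT libraries ranged from 4 to 20 and heart genes from 3 to 6. Where 1 library of a genotype was missing, here and above, both of the 2 left had to be hit. Genes in all libraries ranged from 3 to 18 and genes in cKO alone from 2 to 10. The Kcnh2 difference turned to -0.11 per 10000 listed peaks. Of 682 alternative values, 2 were labelled as changing sign. A further 51 were labelled as differing by more than the spread between replicates (for counts, by more than 1.5 times). The other 629 were labelled as neither, but some of them did change, so 2 and 51 are lower limits. With lists of 1345 peaks, for example, the Kcnma1 difference, cKO minus WT, went from 3.67 (spread 1.63) to 0. The Kcnn3 difference went from 1 to -0.667 with these lists. Neither change was counted. With the replicate block the difference in hit genes was 21.3, the same by construction. Deviations of like-numbered libraries from their group means had correlations across 8383 genes of -0.058, -0.101 and -0.0403. No pairing was seen, but deviations from means of 3 libraries cannot settle whether there was one. Some libraries lack enough peaks to show weak sites, and the depth behind this was not measured.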

Other observations

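Other ion channel and receptor families gave values close to those of the potassium channels when set beside genes of like length. Peaks in 2 or more cKO libraries were found at 16 of 26 calcium channel genes (15.0 from length), 9 of 14 sodium channel genes (6.77 from length) and 22 of 27 glutamate receptor genes (19.2 from length), ratios of 1.07, 1.33 and 1.15, where the Kcn family had 1.21. In at least 2 WT libraries the ratios were 1.22, 0.778 and 1.30, where the Kcn family had 1.07. Differences between families were not tested.

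Of 21 Kcn genes under 10 kb, 4 had peaks in 2 or more cKO libraries (1.40 from length) and 2 in as many WT libraries (0.62 from length). The 4 genes were Kcns2, Kcnk7, Kcnk15 and Kcna1, the last with 1 peak in WT 2 and in each cKO library, and they were named after their values were seen. The Kcnk7 peak lies in the neighbouring gene Ehbp1l1.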
